A study of Mus musculus with 6 samples.

Results

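The 10 Cyp2c genes described here, Cyp2c29, Cyp2c37, Cyp2c38, Cyp2c39, Cyp2c40, Cyp2c50, Cyp2c54, Cyp2c55, Cyp2c69 and Cyp2c70, were taken by gene name from expression tables that together held 21528 genes. RNA from whole liver was sequenced from 3 wild-type (WT) mice and 3 TRIM24 C52/55A knockin mice, all labelled C57BL/6, 5 months old and fed a diet with 60% fat for 3 months. The knockin replaces 2 cysteines in the E3 ubiquitin ligase domain of the endogenous TRIM24 by alanine in every cell that makes it. The line was made on a C57Bl/6J background. The study calls this mutant protein ligase-dead, and it reports that insulin moves TRIM24 out of the nucleus. The study bred homozygous knockin mice and WT littermates from heterozygous parents, and every animal ate the high-fat diet, so the effect of the diet itself could not be compared. Levels are in FPKM, the number of fragments of a gene scaled by its transcript length and by the depth of the library, and each library is 1 deposited sample.

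Cyp2c enzymes are haem-containing monooxygenases of the endoplasmic reticulum that hydroxylate drugs and steroids and oxidise arachidonic acid to epoxyeicosatrienoic acids (EETs) and hydroxyeicosatetraenoic acids (HETEs). Hepatocytes, above all those around the central vein, are their main source in the liver, and they draw their electrons from P450 oxidoreductase and cytochrome b5. Several of them are induced by drugs through the nuclear receptors CAR and PXR, and several differ between male and female mice.

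All 10 genes were listed in every library, and all passed the filter of a mean of at least 0.5 FPKM. In the WT livers the mean FPKM ran from 561 for Cyp2c29 through 404 for Cyp2c50, 190 for Cyp2c37, 163 for Cyp2c70, 78.8 for Cyp2c54, 38 for Cyp2c38 and 12.7 for Cyp2c40 down to 1.64 for Cyp2c39, 1.296 for Cyp2c55 and 1.08 for Cyp2c69. In this order the libraries of Cyp2c37 and Cyp2c70 overlapped, as did those of Cyp2c55 and Cyp2c69, while no other pair of neighbours overlapped in WT. In the TRIM24 C52/55A livers Cyp2c50 stood first with a mean of 372 FPKM and Cyp2c29 second with 324. Cyp2c40, at 18.5 FPKM, stood above Cyp2c38, at 11.02 FPKM, and Cyp2c39 was the lowest with 0.604 FPKM.

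The tissue label was checked on 8 hepatocyte markers, of which Alb and Tf were not analysed here and the other 6 summed to 19716 to 20053 FPKM in WT and 20547 to 23377 in TRIM24 C52/55A. TRIM24 C52/55A library 2 held transcripts of 4 adipocyte markers that were at or near 0 in the other libraries. Adipoq was at 4.55 FPKM there and at most 0.127 elsewhere, Plin1 at 3.32 and at most 0.0263, and Lep and Retn at 3.98 and 1.59, with no listed value above 0 elsewhere. The summed FPKM of the 6 adipocyte markers was 16.1 in that library, 0.556 to 0.821 in the other TRIM24 C52/55A libraries and 3.40 to 8.62 in WT.

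Of the 10 genes, 2 fell in the TRIM24 C52/55A livers, namely Cyp2c29 and Cyp2c38, and none rose. The test was limma on log2(FPKM + 1) with Benjamini-Hochberg adjustment over 12225 genes and a threshold of 0.05, and fold changes below are differences on that scale, which understates changes of low genes. Among all genes tested 7.72% passed in either direction, 6.09% as lower and 1.64% as higher, so that 2 of 10 members lower stands beside a background of 6.09%. Without an adjustment, 3 members were lower (Cyp2c29, Cyp2c38, Cyp2c39) and 3 higher (Cyp2c40, Cyp2c69, Cyp2c70) at p under 0.05, beside 19% of all genes tested as lower and 4.63% as higher. The groups did not overlap for 4 of the 10, the 3 lower ones and Cyp2c70, against 28.9% of all genes tested. The median log2 fold change of the 10 genes was 0.01, with a range from -1.76 to 0.60, against a median of -0.08 over all genes, and the median size without sign was 0.52 for the 10 genes and 0.14 for all genes.

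**Figure D1:**
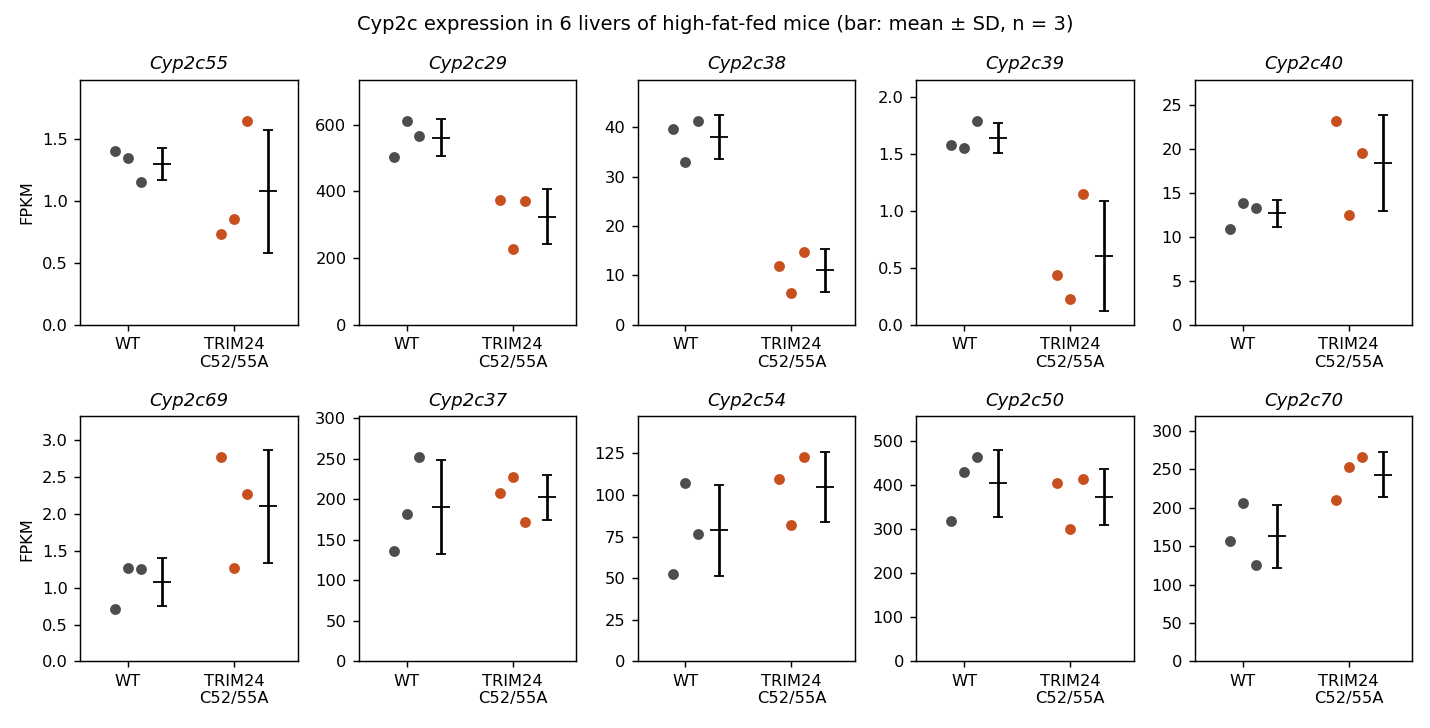
FPKM of the 10 Cyp2c genes in each library of WT (grey) and TRIM24 C52/55A (orange) livers, 1 panel per gene with its own axis from 0, and the mean ± SD of 3 libraries beside the points. Cyp2c29, Cyp2c38 and Cyp2c39 lie lower in all 3 TRIM24 C52/55A libraries, Cyp2c70 lies higher in all 3, and the other 6 genes overlap.

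The 10 genes lie in 1 cluster of 14 protein-coding Cyp2c genes on mouse chromosome 19, chr19:39007019-40187333 (GRCm38, GENCODE M21), 1.18 Mb long, in the order Cyp2c55, Cyp2c65, Cyp2c66, Cyp2c29, Cyp2c38, Cyp2c39, Cyp2c67, Cyp2c68, Cyp2c40, Cyp2c69, Cyp2c37, Cyp2c54, Cyp2c50 and Cyp2c70. Each of them has 9 exons in the transcript with the longest coding sequence. The coding sequences fall into groups of close copies, which set how well short fragments can be assigned. Cyp2c38 and Cyp2c39 are 94.2% identical, and Cyp2c29 is 89.1% identical to Cyp2c38 and 89.5% to Cyp2c39. Cyp2c37, Cyp2c50 and Cyp2c54 are 95.1% to 96.1% identical, and Cyp2c40, Cyp2c67, Cyp2c68 and Cyp2c69 are 96.5% to 98.1% identical. Cyp2c70 stands alone, with 68.7% identity to its nearest relative Cyp2c55.

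Of all stretches of 75 bases in the transcript, none of Cyp2c29, Cyp2c55 or Cyp2c70 occurs in another Cyp2c transcript, against 1.86% for Cyp2c38 and 2.98% for Cyp2c39. The share was 13.8% for Cyp2c37, 14.1% for Cyp2c54 and 17.8% for Cyp2c50, and it reached 43.2% for Cyp2c69 and 57.1% for Cyp2c40. The values of the last 2 genes are therefore uncertain, since fragments from Cyp2c67 and Cyp2c68 could have been counted with them.

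**Figure D2:**
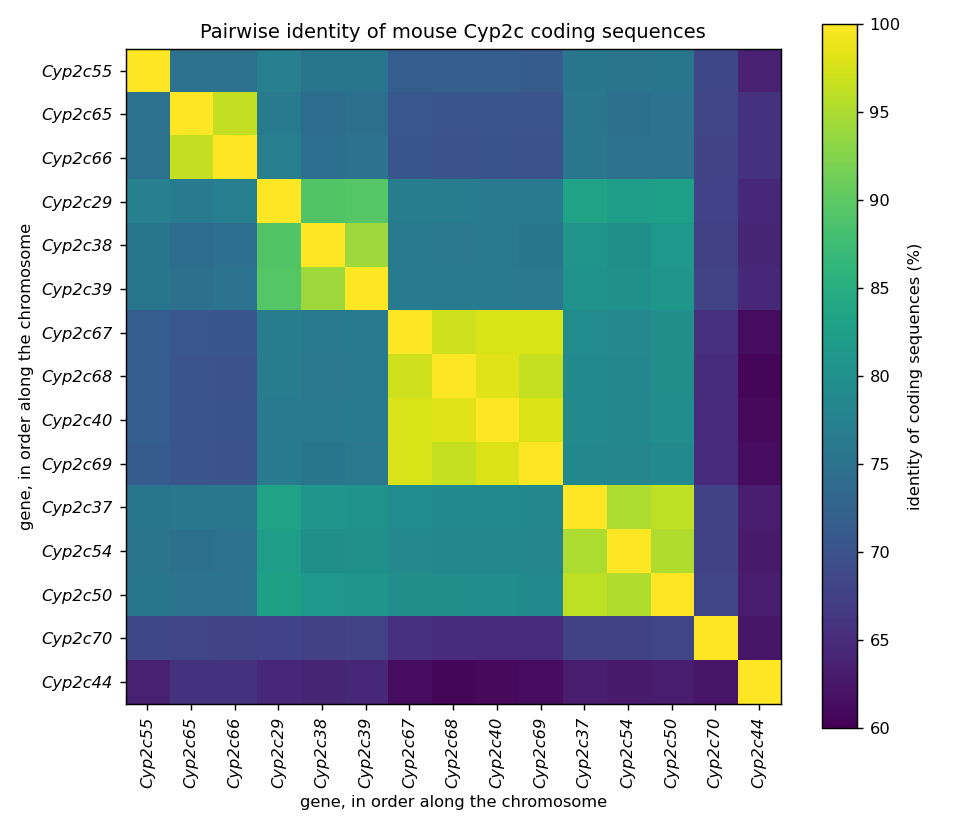
Percent identity of coding sequences between each pair of Cyp2c genes, with genes in their order along the chromosome on both axes and colour from 60% to 100%. The bright blocks are Cyp2c65 with Cyp2c66, Cyp2c38 with Cyp2c39, the 4 genes from Cyp2c67 to Cyp2c69, and Cyp2c37, Cyp2c54 and Cyp2c50, while Cyp2c70 and Cyp2c44 share at most 68.7% with any other gene.

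The 2 genes that fell, and the third that was lower in every TRIM24 C52/55A library, are next to each other in the cluster and are each other's nearest relatives. Their 250 bases before the RefSeq transcription start are shown because they were lower together (GRCm38.p6, printed 5′ to 3′ on the strand of the gene). Capitals mark TATAAA, the forkhead motif TGTTTAC, the nuclear receptor core AGGTCA and the HNF4 motif CAAAGTCCA, each searched on both strands.
Cyp2c29 (chr19:39286835-39287084, plus strand): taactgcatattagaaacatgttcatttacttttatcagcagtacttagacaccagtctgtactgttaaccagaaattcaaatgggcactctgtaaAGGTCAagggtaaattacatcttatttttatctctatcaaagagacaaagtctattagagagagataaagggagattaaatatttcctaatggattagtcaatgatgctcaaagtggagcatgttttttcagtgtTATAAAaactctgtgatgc
Cyp2c38 (chr19:39463076-39463325, minus strand): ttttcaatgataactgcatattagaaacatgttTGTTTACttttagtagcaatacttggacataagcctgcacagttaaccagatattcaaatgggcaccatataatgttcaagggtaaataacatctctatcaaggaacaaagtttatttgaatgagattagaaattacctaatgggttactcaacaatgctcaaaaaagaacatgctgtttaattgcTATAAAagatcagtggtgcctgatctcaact
Cyp2c39 (chr19:39510572-39510821, plus strand): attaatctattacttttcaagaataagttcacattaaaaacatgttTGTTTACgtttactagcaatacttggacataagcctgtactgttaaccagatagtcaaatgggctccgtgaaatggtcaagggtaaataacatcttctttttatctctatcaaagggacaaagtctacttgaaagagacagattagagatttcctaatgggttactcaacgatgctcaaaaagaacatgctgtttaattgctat
The windows of Cyp2c38 and Cyp2c39 are 87.8% identical where they align, and that of Cyp2c29 is 81.5% identical to Cyp2c39 and 78.9% to Cyp2c38. TGTTTAC occurred in Cyp2c38 and Cyp2c39 and in no other of 13 Cyp2c windows, against 3.17% of 32851 RefSeq windows of this length. AGGTCA occurred in Cyp2c29 and Cyp2c70, against 14% of all windows. RefSeq starts Cyp2c29 17680 bases downstream of the first base in GENCODE, so its window lies within the longer gene model. Of the 10 members, 9 had an entry.

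Cyp2c29, which makes 14,15-EET and is induced by phenobarbital through CAR, spans chr19:39269405-39330713 on the plus strand. Its FPKM was 504, 612 and 567 in the WT libraries and 373, 228 and 371 in the TRIM24 C52/55A libraries. Every TRIM24 C52/55A library was below every WT library, and library 2 was the lowest. The mean was 561 ± 54.5 (SD, n = 3) in WT and 324 ± 82.9 (SD, n = 3) in TRIM24 C52/55A, which is 0.577 times the WT mean. The log2 fold change was -0.82 (SE 0.18, 95% interval -1.25 to -0.40, adjusted p = 0.0344). The call was lost when WT library 1, 2 or 3 or TRIM24 C52/55A library 1 was left out (adjusted p = 0.0744, 0.106, 0.115 and 0.0640) and with median-of-ratios scaling (0.0925), quantile normalization (0.0782) or no filter (0.108). Over all 16 alternatives, whether or not the call held, the log2 fold change lay between -0.94 and -0.59.

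Cyp2c38, an arachidonate epoxygenase, spans chr19:39389556-39463075 on the minus strand. Its FPKM was 39.7, 33.0 and 41.4 in WT and 11.9, 6.35 and 14.8 in TRIM24 C52/55A. The highest TRIM24 C52/55A value, 14.8, was below the lowest WT value, 33.0, and library 2 was again the lowest. The means were 38 ± 4.43 and 11.02 ± 4.29 (SD, n = 3 each), a ratio of 0.290, with a log2 fold change of -1.76 (SE 0.25, 95% interval -2.34 to -1.19, adjusted p = 0.00728). The call held in all 16 alternatives, 1 of which sums the gene with Cyp2c29 and Cyp2c39, with adjusted p from 0.00297 to 0.0447, and 0.213% of all genes tested had a lower log2 fold change.

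Cyp2c39, a retinoic acid hydroxylase, spans chr19:39510862-39568529 on the plus strand and was present at a low level. Its FPKM was 1.58, 1.55 and 1.79 in WT and 0.435, 0.230 and 1.15 in TRIM24 C52/55A. The groups did not overlap, and TRIM24 C52/55A library 3 lay closest to WT. The means were 1.64 ± 0.132 and 0.604 ± 0.482 (SD, n = 3 each), with a log2 fold change of -0.76 (SE 0.19, 95% interval -1.20 to -0.31, adjusted p = 0.0528), which missed the threshold. It passed without TRIM24 C52/55A library 3 (-0.99, adjusted p = 0.00641), on a TPM scale (-0.96, adjusted p = 0.0366) and with the robust variance model (adjusted p = 0.0472), and with a pseudocount of 0.1 the log2 fold change was -1.52 (adjusted p = 0.075). These levels stand for about 7 to 51 fragments per library, against about 285 to 1857 for Cyp2c38 and 6368 to 17085 for Cyp2c29.

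In whole liver, fewer cells of a type and less RNA per cell cannot be told apart. Of 10 pericentral hepatocyte markers, none of them a Cyp2c gene, 5 fell and none rose, beside 6.09% and 1.64% of all genes, and their summed FPKM was 4470 to 5727 in WT and 3079 to 3612 in TRIM24 C52/55A. Of 10 periportal markers 2 rose and 1 fell, beside the same shares, with sums of 4542 to 4802 and 4559 to 5210. The summed FPKM of the 5 listed of 7 intestinal markers was 174 to 180 in WT and 69.6 to 97.7 in TRIM24 C52/55A. Only 2 of them had a mean of at least 0.5 FPKM and were tested, and 1, Fabp2, was lower. The sum stands almost wholly for these 2 genes. For 5 markers of T and B cells, none high enough to be tested, the sums were 1.57 to 1.81 and 0.877 to 1.29. The part of these shifts in the lower Cyp2c29 and Cyp2c38 was not tested.

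**Figure D3:**
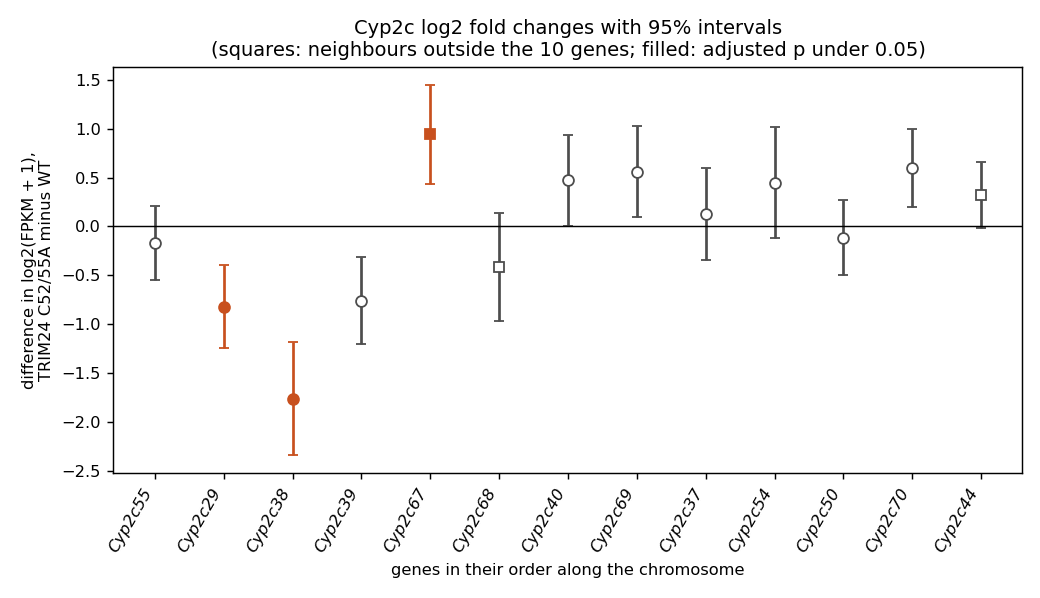
Difference in log2(FPKM + 1) between TRIM24 C52/55A and WT livers (vertical axis, with 95% intervals from limma) for the 13 tested Cyp2c genes in their order along the chromosome. Cyp2c29 and Cyp2c38 (filled circles) lie at -0.82 and -1.76, Cyp2c67 (filled square) at 0.94, and the intervals of Cyp2c55, Cyp2c37, Cyp2c54, Cyp2c50, Cyp2c68 and Cyp2c44 cross 0.

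Cyp2c37, Cyp2c50 and Cyp2c54, close copies that oxidise arachidonic acid to EETs and HETEs, did not pass the test in either direction. Cyp2c37 (chr19:39992424-40012243, plus strand) had 137, 181 and 252 FPKM in WT and 208, 227 and 172 in TRIM24 C52/55A. The groups overlapped, with the lowest and the highest library both in WT, and the log2 fold change was 0.12 (SE 0.21, 95% interval -0.35 to 0.60, adjusted p = 0.771). It changed sign, to -0.09, when WT library 1 was left out.

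Cyp2c50 (chr19:40089688-40113950, plus strand) had 318, 430 and 463 FPKM in WT and 404, 299 and 413 in TRIM24 C52/55A. Here too the groups overlapped. The log2 fold change of -0.11 (SE 0.17, 95% interval -0.50 to 0.27, adjusted p = 0.741) became 0.03 after quantile normalization and without TRIM24 C52/55A library 2. Cyp2c54 (chr19:40037940-40073827, minus strand) had 52.4, 107 and 76.6 FPKM in WT and 110, 81.9 and 123 in TRIM24 C52/55A. Library 2 of TRIM24 C52/55A fell within the WT range and the other two lay above it, and the log2 fold change was 0.45 (SE 0.25, 95% interval -0.12 to 1.014, adjusted p = 0.330). The 3 genes summed to 508, 719 and 791 FPKM in WT and 722, 608 and 707 in TRIM24 C52/55A, which is 672 ± 147 against 679 ± 61.7 (SD, n = 3 each).

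Cyp2c40, which oxidises arachidonic acid to 16-HETE, and Cyp2c69 are known to be higher in the livers of female mice. Cyp2c40 (chr19:39767071-39812814, minus strand) had 10.9, 13.8 and 13.3 FPKM in WT and 23.3, 12.5 and 19.6 in TRIM24 C52/55A. Cyp2c69 (chr19:39842814-39886799, minus strand) had 0.708, 1.27 and 1.26 FPKM in WT and 2.77, 1.26 and 2.28 in TRIM24 C52/55A. For both genes TRIM24 C52/55A libraries 1 and 3 were above every WT library and library 2 was within the WT range. The log2 fold changes were 0.47 for Cyp2c40 (SE 0.20, 95% interval 0.01 to 0.94, adjusted p = 0.205) and 0.56 for Cyp2c69 (SE 0.20, 95% interval 0.09 to 1.02, adjusted p = 0.1404), so neither passed. Without TRIM24 C52/55A library 2 both passed, at 0.71 (adjusted p = 0.0195) and 0.77 (adjusted p = 0.0309). Transcripts of the Y-linked gene Ddx3y were at 5.62 to 7.05 FPKM in the 6 libraries, and Xist was at most 0.00403.

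Their near copies Cyp2c67 and Cyp2c68, outside the 10 genes, share 36% and 28.5% of their 75-base stretches with another Cyp2c transcript. Cyp2c67 rose, with 97.3, 131 and 111 FPKM in WT and 278, 149 and 245 in TRIM24 C52/55A, no overlap and a log2 fold change of 0.94 (SE 0.22, adjusted p = 0.0388). That call was lost with any of the 3 WT libraries left out (adjusted p = 0.125, 0.0641 and 0.125 for libraries 1, 2 and 3) and without TRIM24 C52/55A library 1 or 3 (0.128 and 0.0879), and with no filter (0.118), no trend (0.0527) or the robust variance model (0.0631). Cyp2c68 had 83.6, 95.7 and 124 FPKM in WT and 94.2, 49.6 and 88.7 in TRIM24 C52/55A, with overlapping groups and a log2 fold change of -0.41 (SE 0.24, adjusted p = 0.357). The ratio of Cyp2c67 to Cyp2c68 was 1.16, 1.37 and 0.898 in WT and 2.95, 2.99 and 2.76 in TRIM24 C52/55A. When these 2 genes were summed with Cyp2c40 and Cyp2c69, the sum was 192, 242 and 249 FPKM in WT and 399, 212 and 356 in TRIM24 C52/55A, and its log2 fold change of 0.46 did not pass (adjusted p = 0.263).

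All 4 of these copies hold the HNF4 motif CAAAGTCCA before their start, as do Cyp2c65 and Cyp2c70. These are 6 of 13 Cyp2c windows against 0.384% of all RefSeq windows. The windows of the 4 copies are 90.1% to 98.6% identical where they align, so their matches are not independent. Cyp2c40 is shown for the copies, whose windows are so alike that Cyp2c40 and Cyp2c69 share 98.6% of aligned bases, and Cyp2c70 as the member that was higher without overlap.
Cyp2c40 (chr19:39812815-39813064, minus strand): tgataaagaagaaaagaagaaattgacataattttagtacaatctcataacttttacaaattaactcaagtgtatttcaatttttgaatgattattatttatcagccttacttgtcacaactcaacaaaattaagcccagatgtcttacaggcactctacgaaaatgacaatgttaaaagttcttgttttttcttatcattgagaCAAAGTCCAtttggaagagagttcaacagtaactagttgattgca
Cyp2c70 (chr19:40187287-40187536, minus strand): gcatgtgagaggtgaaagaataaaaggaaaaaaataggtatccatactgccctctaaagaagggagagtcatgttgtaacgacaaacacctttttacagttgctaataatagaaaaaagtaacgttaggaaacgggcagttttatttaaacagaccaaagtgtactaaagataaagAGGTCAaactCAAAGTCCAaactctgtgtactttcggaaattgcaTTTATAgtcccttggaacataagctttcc
None of the 3 windows printed for Cyp2c29, Cyp2c38 and Cyp2c39 holds this motif. Of the other motifs searched on both strands, the HNF1 core GTTAAT occurred in Cyp2c40, Cyp2c68 and Cyp2c69 (6.43% of all windows), the C/EBP motif TTGCNNAA in Cyp2c37, Cyp2c67 and Cyp2c69 (9.56%), and TATAAA in 7 of 13 (12.4%). The count for TATAAA depends on where RefSeq sets the start. The Cyp2c39 window ends 40 bases before the GENCODE start, short of the stretch where Cyp2c38 holds TATAAA. Those of Cyp2c40, Cyp2c68 and Cyp2c69 end short of the stretch where Cyp2c67 holds it. The STAT motif TTCNNNGAA occurred in 0 of the 13 windows and in 7.02% of all windows. The marked motifs do not overlap. A motif match is only a match of letters, and no binding was measured.

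Cyp2c70, the enzyme that makes muricholic acids from chenodeoxycholic acid in mice, spans chr19:40153353-40187333 on the minus strand. Its FPKM was 157, 207 and 125 in WT and 211, 253 and 266 in TRIM24 C52/55A. The lowest TRIM24 C52/55A value exceeded the highest WT value, although the gap between 207 and 211 was small. The means were 163 ± 41.0 and 243 ± 28.9 (SD, n = 3 each), a ratio of 1.49, and the log2 fold change of 0.60 (SE 0.17, 95% interval 0.20 to 0.99, adjusted p = 0.0788) missed the threshold. It passed without WT library 2 (0.78, adjusted p = 0.0316).

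Cyp2c55, which makes 19-HETE and is expressed mostly in the gut, spans chr19:39007019-39042693 on the plus strand. Its FPKM was 1.40, 1.34 and 1.15 in WT and 0.728, 0.851 and 1.65 in TRIM24 C52/55A. TRIM24 C52/55A library 3 was the highest of all 6 and the other two the lowest, and the log2 fold change was -0.17 (SE 0.17, 95% interval -0.55 to 0.21, adjusted p = 0.597). Cyp2c44, an EET-forming gene outside the cluster at chr19:44005022-44029208 (named Cyp2c23 in GENCODE M21), had 101, 154 and 119 FPKM in WT and 148, 146 and 170 in TRIM24 C52/55A, with a log2 fold change of 0.33 (SE 0.15, adjusted p = 0.228).

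The 10 genes together amounted to 1223, 1589 and 1543 FPKM in WT and 1344, 1111 and 1383 in TRIM24 C52/55A. The groups overlapped, with 1452 ± 199 against 1280 ± 147 (SD, n = 3 each). All 15 listed Cyp2c genes summed to 1790 ± 250 in WT and 1736 ± 243 in TRIM24 C52/55A (SD, n = 3 each), also with overlap. The make-up of the sum of the 10 genes is given next. Cyp2c29 contributed 41.2%, 38.5% and 36.8% of it in WT and 27.7%, 20.5% and 26.8% in TRIM24 C52/55A. Cyp2c38 contributed 3.24%, 2.08% and 2.68% in WT and 0.887%, 0.571% and 1.07% in TRIM24 C52/55A. Both shares were lower in every TRIM24 C52/55A library.

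In the other direction, Cyp2c70 contributed 12.9%, 13.0% and 8.13% in WT and 15.7%, 22.8% and 19.2% in TRIM24 C52/55A. Cyp2c54 contributed 4.28% to 6.75% in WT and 7.37% to 8.87% in TRIM24 C52/55A, while Cyp2c50 held 26.0% to 30.0% and 26.9% to 30.1%. Shares add up to a whole, so a lower share of one gene raises the others. For each of Cyp2c29, Cyp2c38, Cyp2c39, Cyp2c40, Cyp2c54, Cyp2c69 and Cyp2c70 the groups of shares did not overlap, and the exact two-sided permutation test gave p = 0.1, the smallest value that 3 against 3 libraries allow. The ratio of Cyp2c29 to Cyp2c50, the most abundant pair, was 1.58, 1.42 and 1.23 in WT and 0.923, 0.762 and 0.899 in TRIM24 C52/55A.

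**Figure D4:**
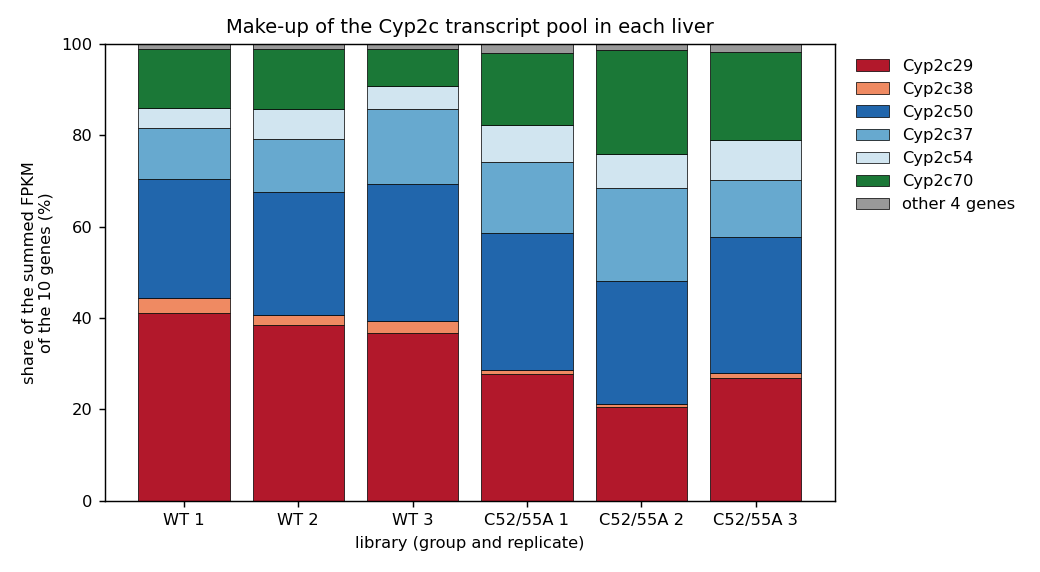
Share of each gene in the summed FPKM of the 10 Cyp2c genes (vertical axis, percent) in each library, 3 WT on the left and 3 TRIM24 C52/55A on the right. The Cyp2c29 share lies between 36.8% and 41.2% in WT and between 20.5% and 27.7% in TRIM24 C52/55A, and the Cyp2c70 share is larger in all 3 TRIM24 C52/55A libraries.

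Of 12212 tested genes outside Cyp2c, those most like Cyp2c29 over the 6 libraries were Gm15487, Wdr82 and Hspb8, with Pearson r of 0.995, 0.992 and 0.992 on log2(FPKM + 1). Those most like Cyp2c38 were Dym, Acnat2 and Nipsnap3b, with r of 0.998, 0.997 and 0.996. As 317 genes had r above 0.9 with Cyp2c29 and 659 with Cyp2c38, these names stand for the top of a long list over 6 points that share the 2 groups. Among them Acnat2, an acyl-CoA N-acyltransferase, had 58.0, 48.2 and 54.6 FPKM in WT and 27.4, 18.3 and 31.2 in TRIM24 C52/55A.

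Of 7 genes that deliver electrons to P450 enzymes or bind them, 2 fell, none rose and 5 did not pass, where 6.09% of all genes fell. The log2 fold change was negative for 6 of the 7 under each of the 4 scalings tried, against 65.5% of all genes on the FPKM scale, and the median log2 fold change was -0.40 against -0.08 over all genes. Pgrmc2, a haem-binding partner of P450 enzymes, had 40.9, 35.7 and 34.3 FPKM in WT and 22.8, 25.1 and 24.1 in TRIM24 C52/55A (log2 fold change -0.60, SE 0.09, adjusted p = 0.00896). Cyb5a, cytochrome b5, had 558, 608 and 691 FPKM in WT and 393, 435 and 482 in TRIM24 C52/55A (log2 fold change -0.50, SE 0.11, adjusted p = 0.0301). For both genes no library overlapped. The call for Cyb5a was lost without WT library 1, 2 or 3 or TRIM24 C52/55A library 1 (adjusted p = 0.0542, 0.0818, 0.0985 and 0.112) and with median-of-ratios scaling (0.0638), quantile normalization (0.0564) or no filter (0.0843).

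Por, the P450 oxidoreductase itself, had 65.3, 65.4 and 89.3 FPKM in WT and 49.6, 40.2 and 58.7 in TRIM24 C52/55A. The groups did not overlap, and the log2 fold change of -0.56 (SE 0.16, adjusted p = 0.0796) missed the threshold. It passed without TRIM24 C52/55A library 3 (-0.69, adjusted p = 0.0467) and on a TPM scale (adjusted p = 0.0441).

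Of 21 known regulators of Cyp2c transcription, 20 were tested, 2 fell and none rose, where 6.09% of all genes fell and 1.64% rose, with a median log2 fold change of -0.02. Nr1i3, which encodes CAR, had 120, 101 and 140 FPKM in WT and 76.8, 61.0 and 66.96 in TRIM24 C52/55A, without overlap (log2 fold change -0.80, SE 0.13, adjusted p = 0.0127). Its call was lost without WT library 1 (adjusted p = 0.0516) and with no filter (0.0527). Nr1i2, which encodes PXR, had 23.6, 23.4 and 22.7 FPKM in WT and 20.7, 26.3 and 18.4 in TRIM24 C52/55A (log2 fold change -0.11, 95% interval -0.39 to 0.18, adjusted p = 0.669). Hnf4a, a hepatocyte nuclear receptor, had 146, 147 and 151 FPKM in WT and 148, 158 and 149 in TRIM24 C52/55A (log2 fold change 0.04, 95% interval -0.12 to 0.19, adjusted p = 0.798). Both intervals include 0, and both signs turned under another scaling.

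Cebpb, a bZIP factor, had 27.7, 19.03 and 19.9 FPKM in WT and 7.33, 13.1 and 13.5 in TRIM24 C52/55A (log2 fold change -0.94, SE 0.23, adjusted p = 0.0428). The groups did not overlap. The call was lost without any 1 of the 3 WT libraries or without TRIM24 C52/55A library 1, with adjusted p from 0.0747 to 0.128. It was also lost with median-of-ratios scaling (0.0647), quantile normalization (0.0696), no trend (0.0553), the robust variance model (0.0601) or no filter (0.123). Bcl6, a repressor of female-predominant liver genes that was picked out after its values were seen, had 3.27, 6.36 and 3.08 FPKM in WT and 28.7, 26.8 and 4.91 in TRIM24 C52/55A, and its log2 fold change of 1.75 did not pass (adjusted p = 0.107) except without TRIM24 C52/55A library 3 (2.51, adjusted p = 0.00173).

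**Figure D5:**
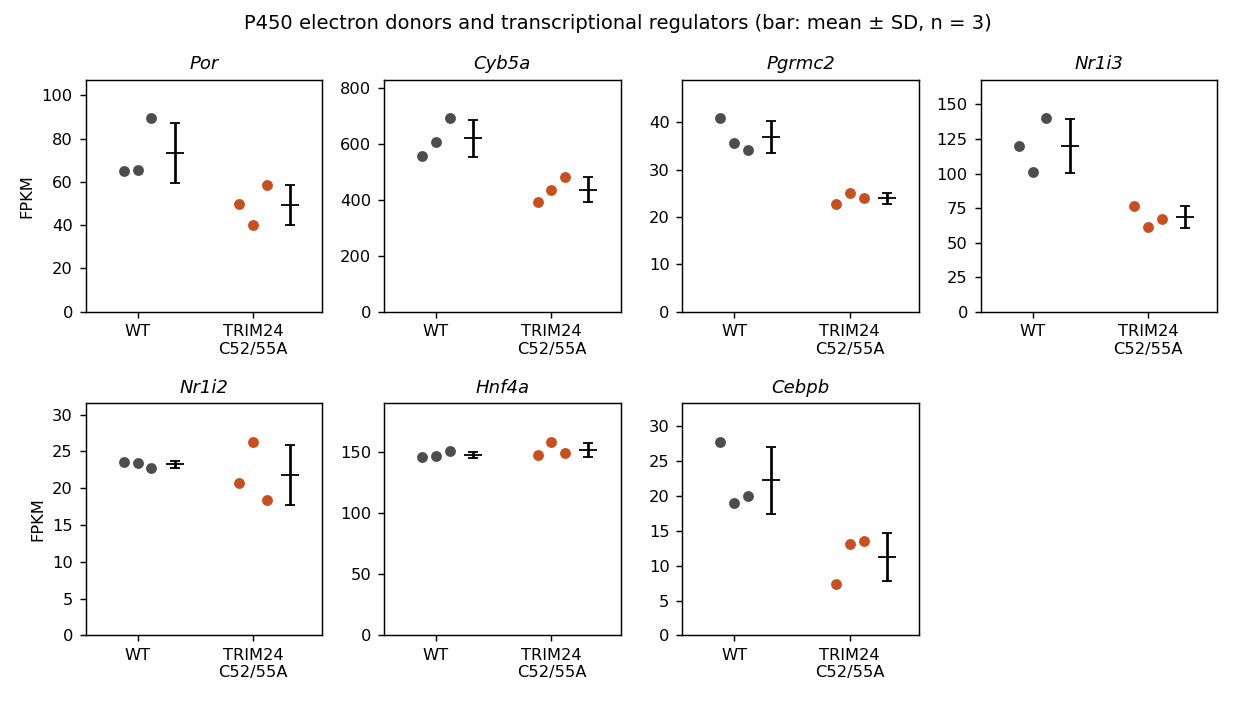
FPKM of 3 genes of electron transfer (Por, Cyb5a, Pgrmc2) and 4 transcriptional regulators (Nr1i3, Nr1i2, Hnf4a, Cebpb) in each library, with the mean ± SD of 3 libraries beside the points and each axis starting at 0. The groups do not overlap except for Nr1i2 and Hnf4a.

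Of 37 genes that release arachidonic acid, oxidise it by other routes or hydrolyse its epoxides, 24 were tested by limma and none passed, with 5 at an unadjusted p under 0.05, 3 higher and 2 lower, where 4.63% and 19% of all genes were higher and lower at that p. Ephx2, the soluble epoxide hydrolase that turns EETs into diols, had 373, 325 and 371 FPKM in WT and 417, 433 and 429 in TRIM24 C52/55A, above WT in every library (log2 fold change 0.26, SE 0.08, adjusted p = 0.0922). It was the 1 gene of the list that passed with median-of-ratios scaling (0.36, adjusted p = 0.0302) and with quantile normalization (0.39, adjusted p = 0.0274), and it is named here for that reason. Hpgd, which oxidises prostaglandins, did not pass with all libraries (log2 fold change -0.72, adjusted p = 0.0948, overlapping groups). It is named because it was the 1 gene of the list that passed without TRIM24 C52/55A library 3 (-0.99, adjusted p = 0.0102), and it passed under no other alternative.

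From low FPKM values, about 15650000 fragments were estimated for a library, and the relative depth of the 6 libraries came to 0.967 to 1.02. Both estimates kept only values within ranges set beforehand, so a larger difference in depth could not have shown. In total 944 genes passed, 200 higher and 744 lower in TRIM24 C52/55A. With median-of-ratios scaling the split was 249 higher and 411 lower, with quantile normalization 255 and 378, and on a TPM scale 197 and 1358. Trim24 mRNA had 5.54, 4.85 and 5.96 FPKM in WT and 6.15, 4.31 and 8.46 in TRIM24 C52/55A (adjusted p = 0.713), and since the knockin exchanges codons, this level does not check the labels.

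Without TRIM24 C52/55A library 2, which held the adipocyte transcripts, Cyp2c29 was at -0.59 (adjusted p = 0.0168) and Cyp2c38 at -1.44 (adjusted p = 0.00297), both still lower, and 4 of the 10 genes passed, the 2 lower ones and Cyp2c40 and Cyp2c69 as higher.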

How the data were processed

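Liver RNA of 3 WT and 3 TRIM24 C52/55A mice was extracted with Trizol and sequenced by Illumina protocols. The authors deposited FPKM values per gene, 1 table per library. The submitters' processing notes name bcl2fastq, Salmon 0.14.0, DESeq2 1.30.0 and GRCm38; how FPKM were made, and the read length, are not given in the sources used here. Genes absent from a library's table were taken as 0, which need not mean no expression, and a filter on the mean (0.5 FPKM or more) left 12225 genes. log2(FPKM + 1) was fitted with limma 3.58.1 (trend) in R 4.3.3, with Benjamini-Hochberg adjustment over all genes. Since FPKM are not counts, no count test was run. Depth was inferred from genes listed in 1 library (0.0639 FPKM for 1 fragment per kilobase, 762 genes within a preset range). Fragment numbers are therefore approximate. Coding sequences came from GENCODE M21, aligned with mafft 7.526, and promoters from RefSeq (GRCm38.p6). Named were all members, other Cyp2c genes of at least 0.5 FPKM, listed genes past the threshold, Por, Nr1i3, Nr1i2, Hnf4a, Trim24, and the 3 most similar genes for 2 members. Ephx2, Hpgd, Fabp2 and Bcl6 were picked after their values were seen. A gene of the regulator list is not reported here. The test was checked on simulated data. Members and lists were chosen with earlier results of these data known. Which animals shared a litter or cage is not stated, so p-values measure the spread between these samples. Alternatives were another pseudocount, filter, scaling and variance model, a replicate block, each library left out, and close copies summed.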

Additional observations from a re-analysis of the deposited data

How the results depend on the processing

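Cyp2c38 passed under all 16 alternatives, Cyp2c29 under 8 and Cyp2c67 under 6, with no change of sign. In 1 of these, close copies were summed, so that Cyp2c29 and Cyp2c38 share a single result there. The number of members that passed (2) became 1 with median-of-ratios scaling, quantile normalization, no filter or the replicate block. It became 3 with TPM or the robust variance model, and 1 to 4 with 1 library left out. With close copies summed, Cyp2c29, Cyp2c38 and Cyp2c39 formed 1 sum, which passed (log2 fold change -0.87, adjusted p = 0.0287). The number of all genes that passed (944) became 1555 on a TPM scale, 347 with no filter, 578 with the replicate block, and 296 to 1272 with 1 library left out. For electron transfer (2) it became 4 with TPM and 1 with median-of-ratios scaling, quantile normalization or no filter, and 1 to 3 with 1 library left out. For arachidonate genes (0) it became 1 with median-of-ratios scaling or quantile normalization and 0 to 1 with 1 library left out. For regulators (2) it became 1 with median-of-ratios scaling, quantile normalization, no trend, the robust variance model or the replicate block, 0 with no filter, and 0 to 3 with 1 library left out. The cause was not tested. Without TRIM24 C52/55A library 2 the counts rose, to 1272 genes and 4 members.

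Signs turned for genes that did not pass. Cyp2c50 went to 0.0317 with quantile normalization and to 0.0351 with copies summed (-0.276 to 0.0345 with 1 library left out), Cyp2c37 ranged from -0.0883 to 0.350 with 1 library left out, and Cyp2c68 took the sum's 0.46. Nr1i2 went to 0.0290 with quantile normalization (-0.24 to 0.0038 with 1 library left out), Hnf4a to -0.0263 on a TPM scale, and Trim24 ranged from -0.0615 to 0.355 with 1 library left out. With 1 library left out, the difference in the Cyp2c55 share ranged from -0.0257 to 0.00671 percentage points. The Cyp2c50 share differed by -1.09 points when all Cyp2c genes formed the sum.

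The labels do not say whether replicate numbers mark pairs, and the correlations given next cannot exclude pairing. Same-numbered libraries had correlations of -0.12, -0.10 and 0.0027 between their deviations from the group means, and with the number as a block Cyp2c29, Cyp2c67 and Cebpb did not pass (adjusted p = 0.0648, 0.0807 and 0.0984) and Por did (0.0291). Low levels limit Cyp2c39, Cyp2c55 and Cyp2c69, at about 7 to 51, 23 to 51 and 18 to 71 fragments per library.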
